A study of Homo sapiens with 6 samples.

Results

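The insulin-like growth factor (IGF) binding proteins IGFBP1 to IGFBP7 and the receptors IGF1R and IGF2R are the 9 genes described here, of 58735 in the deposited tables. They were chosen by gene name, with the values of OE_GPX3 over Vector in these libraries already known, so their differences between the groups are a description and not a test of the family. The samples are 6 RNA libraries of A549, a human lung adenocarcinoma cell line, 3 titled OE_GPX3 and 3 titled Vector. The OE_GPX3 libraries carry the genotype and treatment label OE, read here as overexpression of GPX3, which encodes the secreted selenoprotein glutathione peroxidase 3. The Vector libraries carry the label WT for both and are the vector controls by their title. The labels give no promoter, clone, delivery method or time for the overexpression. Nor do they state that replicates were cultured separately, so a p-value here reflects only the spread among these libraries, which may be technical.

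The IGF system sets how much growth factor reaches its receptors. The binding proteins are secreted, hold IGF1 and IGF2 in the extracellular fluid and release them when proteases cut the binding protein. IGF1R is a cell-surface tyrosine kinase that signals through IRS adaptors to PI3K and AKT, whereas IGF2R, the cation-independent mannose 6-phosphate receptor, takes IGF2 to lysosomes and has no kinase of its own.

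The libraries held between 15831693 and 18751815 counts. GPX3 itself had 1311, 1031 and 1361 CPM (counts relative to library size, scaled between libraries with TMM) in OE_GPX3, against 36.0, 33.8 and 39.6 CPM in Vector, a log2 fold change of 5.08. Between replicates of a group, OE_GPX3 replicate 1 stood apart: the chi-square per degree of freedom of its counts was 20.5 against OE_GPX3 replicate 2 and 15.1 against replicate 3, while the other within-group pairs ran between 7.48 and 9.71. The fold change of each of the 9 genes is therefore also given without that library. Of 11 markers of A549 and epithelial cells all 11 reached 1 CPM, with sums of 44762 to 53126 CPM in OE_GPX3 and 40973 to 43973 CPM in Vector, and CDKN2A, which A549 cells lack, had 1 count over the 6 libraries. Markers of fibroblasts (1 of 8 at 1 CPM or more, COL1A1), endothelium (0 of 5, KDR at 0) and immune cells (1 of 6, CD14) summed to 3.54 to 7.23, 0.505 to 1.04 and 16.02 to 17.3 CPM in OE_GPX3 and to 4.74 to 4.94, 0.339 to 0.978 and 12.03 to 16.3 CPM in Vector.

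The promoters of 7 of the 9 genes were matched in RefSeq (GRCh38.p14), those of IGFBP1 and IGFBP7 not. Those of IGFBP2 and IGFBP4, whose values did not overlap between the groups, and of IGF1R, the signalling receptor, are shown 5′ to 3′ with the GC box, GGGCGG or its reverse complement CCGCCC, in capitals. The IGFBP2 stretch is chr2:216633170-216633394 on the plus strand, the 225 bases before the first exon of its longest coding transcript in GENCODE 29. This stretch lies inside the annotated gene, which starts at 216632828, so it is not upstream of every IGFBP2 transcript. RefSeq gave 3 windows for IGFBP2, and the nearest to the start of that coding transcript was used. The IGFBP4 stretch is chr17:40443200-40443449 on the plus strand and that of IGF1R is chr15:98648289-98648538 on the plus strand.
IGFBP2: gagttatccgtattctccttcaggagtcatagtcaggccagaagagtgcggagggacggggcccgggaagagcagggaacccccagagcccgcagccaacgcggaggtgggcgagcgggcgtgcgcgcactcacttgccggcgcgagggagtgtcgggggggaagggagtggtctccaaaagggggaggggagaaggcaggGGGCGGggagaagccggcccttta
IGFBP4: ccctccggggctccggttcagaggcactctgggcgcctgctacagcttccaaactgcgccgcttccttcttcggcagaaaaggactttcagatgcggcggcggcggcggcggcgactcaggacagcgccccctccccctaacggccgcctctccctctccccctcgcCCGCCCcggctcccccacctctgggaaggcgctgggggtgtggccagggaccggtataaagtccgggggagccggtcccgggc
IGF1R: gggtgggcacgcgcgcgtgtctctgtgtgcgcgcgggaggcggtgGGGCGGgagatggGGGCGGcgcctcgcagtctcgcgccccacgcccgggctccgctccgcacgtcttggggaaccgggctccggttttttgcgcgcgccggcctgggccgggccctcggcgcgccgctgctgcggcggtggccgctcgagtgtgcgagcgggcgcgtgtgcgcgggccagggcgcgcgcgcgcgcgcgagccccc
Within the 250 bases before the RefSeq start, GC content was 69.2% for IGFBP2, 71.6% for IGFBP4 and 81.2% for IGF1R, against a median of 58.0% over 35116 RefSeq windows of the same length. These windows held 22, 24 and 48 CpG dinucleotides. Counted on both strands, with overlapping matches allowed, the GC box, to which SP1 binds, was present in 6 of the 7 promoters (42.6% of all windows) and the TATA box letters TATAAA in 1 of 7, IGFBP4 (10.7% of all windows). CATTCC, the letters TEAD factors of the Hippo pathway bind, was present in 2 of 7, IGFBP5 and IGFBP6 (11.9% of all windows). For IGFBP6 the RefSeq start lay 222 bases past the start of its longest coding transcript in GENCODE 29. Its GC box and its CATTCC match both fell in those 222 bases, not in the 28 window bases before the GENCODE start. The antioxidant response element core TGACNNNGC was in 0 of 7 (10.9% of all windows).

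IGFBP4 was by far the most abundant of the binding proteins. Levels of different genes were compared per gene length, as the deposited FPKM. IGFBP4 (ENSG00000141753, protein-coding, chr17:40443461-40457731, hg38) had 1030, 983 and 1038 FPKM in OE_GPX3 and 757, 735 and 927 FPKM in Vector, and ranked 45 of 14458 tested genes by mean FPKM. Its product inhibits IGF action until the protease PAPPA cuts it. IGFBP4 made up 82.9%, 82.4% and 83.9% of the summed FPKM of the 7 binding proteins in OE_GPX3 and 80.3%, 82.0% and 83.1% in Vector, so its share overlapped between the groups. The summed FPKM of the 7 was 1242, 1193 and 1237 in OE_GPX3 and 944, 897 and 1115 in Vector. Without IGFBP4, the sum was 212, 210 and 199 FPKM in OE_GPX3 and 186, 161 and 188 FPKM in Vector. In both sums, as deposited, every OE_GPX3 library was above every Vector library. The sums depend on the constant by which the FPKM scale each library. It differed from the total count by 1.31%, -4.52% and -3.07% in OE_GPX3 and by 4.10%, 4.90% and 0.50% in Vector. With total counts in place of that constant, the groups overlapped in the sum without IGFBP4, where Vector replicate 1 came out above OE_GPX3 replicate 3. The sum of all 7 stayed apart, with OE_GPX3 replicate 2 the lowest of its group and Vector replicate 3 the closest to it.

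IGFBP3, the main carrier of IGFs in serum, came next with 92.1, 76.2 and 69.5 FPKM in OE_GPX3 and 83.8, 65.1 and 74.9 FPKM in Vector. IGFBP6, which prefers IGF2, followed with 45.6, 59.0 and 63.6 FPKM in OE_GPX3 and 40.6, 37.7 and 49.1 FPKM in Vector. These 3 leading genes did not overlap with their neighbours in the order in either group. IGFBP2 had a mean of 31.8 FPKM and IGFBP1 of 25.8 FPKM in OE_GPX3, and their ranges overlapped. In Vector the means were 22.1 FPKM for IGFBP2 and 26.8 FPKM for IGFBP1, again with overlapping ranges. IGF1R, IGFBP7 and IGF2R lay together below them, with means of 15.02, 13.3 and 11.95 FPKM in OE_GPX3 and 15.5, 11.7 and 12.3 FPKM in Vector. In Vector the ranges of IGF1R and IGF2R did not overlap, while those of IGF2R and IGFBP7 did, and in OE_GPX3 each of the 3 overlapped with the next. IGFBP5 was last, with 1.10, 0.927 and 0.698 FPKM in OE_GPX3 and 0.948, 0.489 and 0.802 FPKM in Vector.

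**Figure D1:**
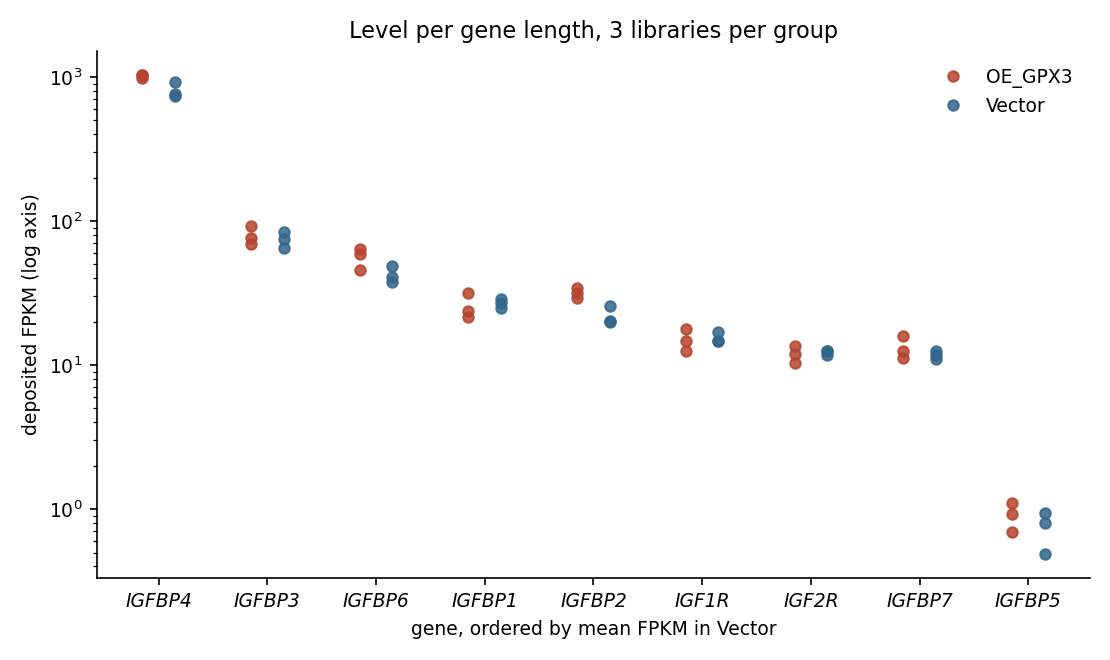
Deposited FPKM (log axis) of the 9 genes in the 3 OE_GPX3 libraries (left of each pair) and the 3 Vector libraries (right), 1 point per library, ordered by mean FPKM in Vector. IGFBP4 lies at 735 FPKM or more in every library, and IGFBP5 between 0.489 and 1.10 FPKM.

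Of the 9 genes, all of which passed the filter on low counts, 1 was called higher in OE_GPX3 (IGFBP2) and 0 lower by edgeR's quasi-likelihood test at an adjusted p under 0.05. Over all 14458 genes tested, 38 were called (0.263%), of which 14 were higher in OE_GPX3 (0.0968%). That count of 38 moved in both directions when single libraries were left out. It was 657 without OE_GPX3 replicate 1, 116 without Vector replicate 1 and 35 without Vector replicate 3. It fell to 12 without OE_GPX3 replicate 3, 4 without Vector replicate 2 and 1 without OE_GPX3 replicate 2. At an unadjusted p under 0.05 the count was 3 of 9 (IGFBP2, IGFBP4 and IGFBP6), against 2110 of all genes (14.6%). The CPM of the groups did not overlap for 2 of the 9, both higher in OE_GPX3 (IGFBP2 and IGFBP4), against 18.5% of all genes in either direction and 8.62% higher. Since the choice of the genes used this contrast, nothing is read from these counts. Of the log2 fold changes, those above 0 were of 6 genes, all of them binding proteins, and those below 0 were of IGFBP1 and both receptors. Their median was 0.17 against -0.016 over all genes tested. In such bulk RNA, fewer cells making a transcript and less of it per cell cannot be told apart.

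**Figure D2:**
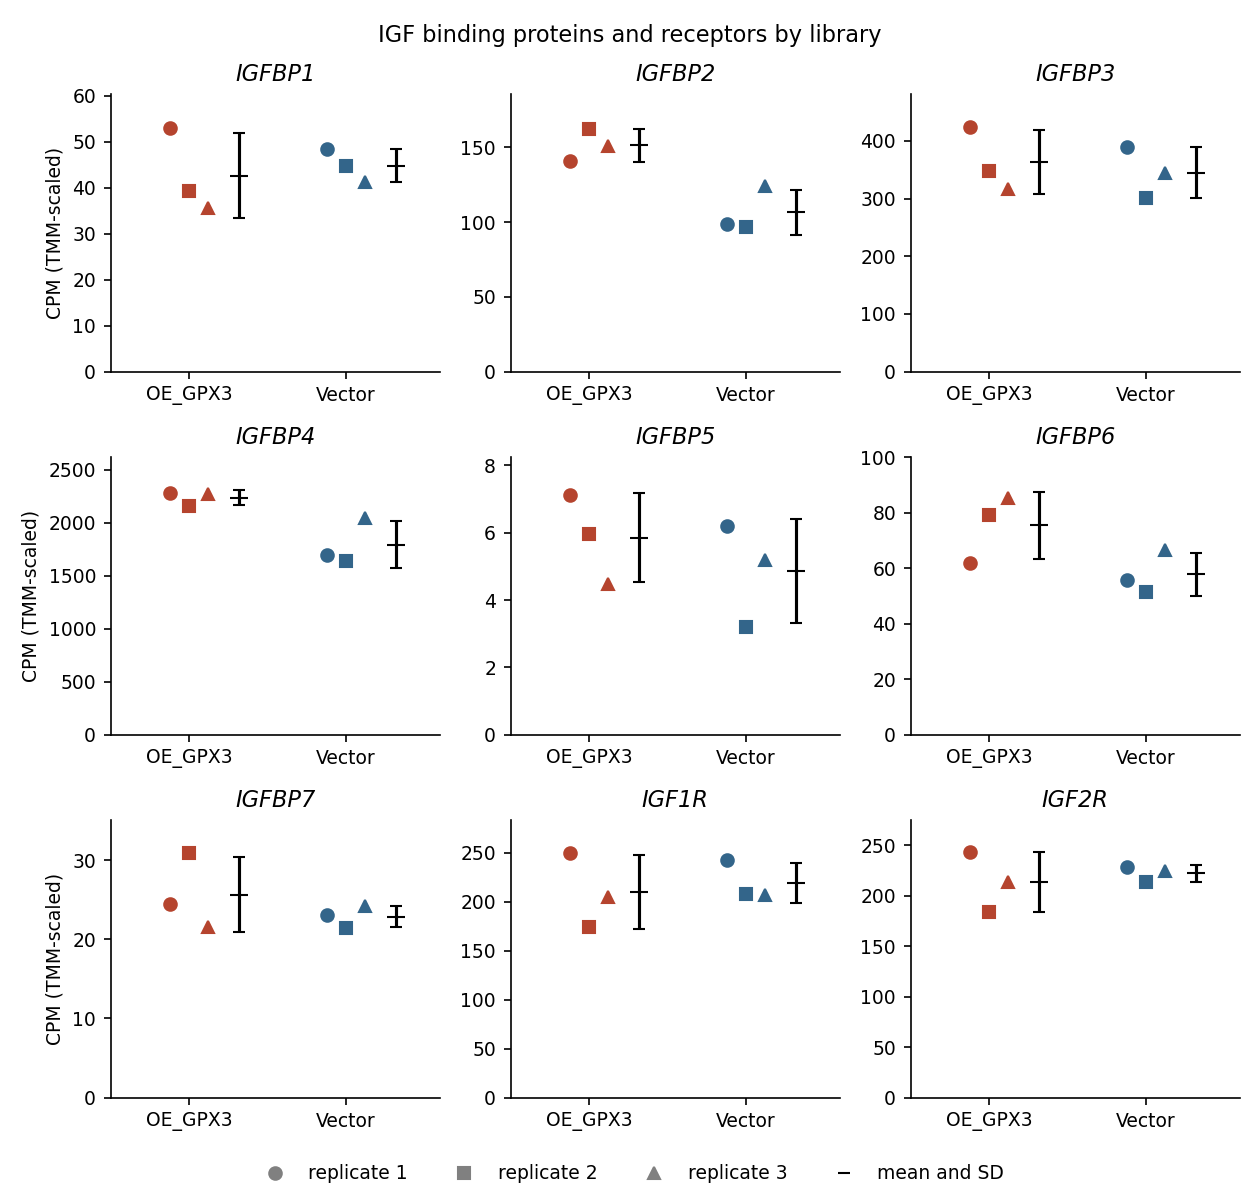
CPM (scaled with TMM) of each gene in every library, OE_GPX3 left and Vector right, with symbols for replicates 1 to 3 and bars for the mean and SD (n = 3). The OE_GPX3 points lie above all Vector points for IGFBP2 and IGFBP4 and overlap with them in the other 7 panels.

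IGFBP2 (ENSG00000115457, protein-coding, chr2:216632828-216664436, hg38) encodes a binding protein that also holds an RGD motif through which it binds integrins. It had 141, 163 and 151 CPM in OE_GPX3, against 98.7, 96.7 and 124 CPM in Vector. Every OE_GPX3 library was above every Vector library, and Vector replicate 3 was the closest to them. The means were 151 ± 11.0 CPM in OE_GPX3 and 106 ± 15.2 CPM in Vector (SD, n = 3 each). The log2 fold change was 0.51 ± 0.11 (SE), a fold of 1.42 with a 95% interval of 1.22 to 1.66 (edgeR adjusted p = 0.0273). Without OE_GPX3 replicate 1 it was 0.56 (edgeR adjusted p = 7.32e-05). The call was lost without OE_GPX3 replicate 2 (0.46, edgeR adjusted p = 0.104), OE_GPX3 replicate 3 (0.52, 0.0991), Vector replicate 1 (0.46, 0.0522) or Vector replicate 2 (0.44, 0.619), and also with limma on log2(FPKM + 1) (0.51, adjusted p = 0.149), and with an offset for GC content (0.41, edgeR adjusted p = 0.129).

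GC content moved with the contrast across all genes. The median log2 fold change was -0.18 in the fifth of tested genes with the lowest GC content and 0.16 in the fifth with the highest. The gap between these high and low GC genes, as each library's deviation from the mean of all 6 on the log2 scale, was 0.065, 0.052 and 0.37 in OE_GPX3 and -0.31, -0.22 and 0.013 in Vector. IGFBP6 (64.1% GC), IGFBP4 (62.5%) and IGFBP2 (57.1%), the genes with the largest differences among the 9, also had the highest GC content of them. With an offset for GC content per library, IGFBP6 had a log2 fold change of 0.22 (edgeR adjusted p = 0.501) and IGFBP4 of 0.17 (0.560), beside the 0.41 of IGFBP2, and 0 of the 9 genes were called. IGFBP5 (51.9% GC) had 0.26 with the offset, against 0.28 without it. The other 5 genes also moved little. IGFBP7 had 0.14 (0.17 without it), IGFBP3 0.093 (0.073), IGF2R -0.037 (-0.057), IGFBP1 -0.062 (-0.071) and IGF1R -0.082 (-0.062).

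**Figure D3:**
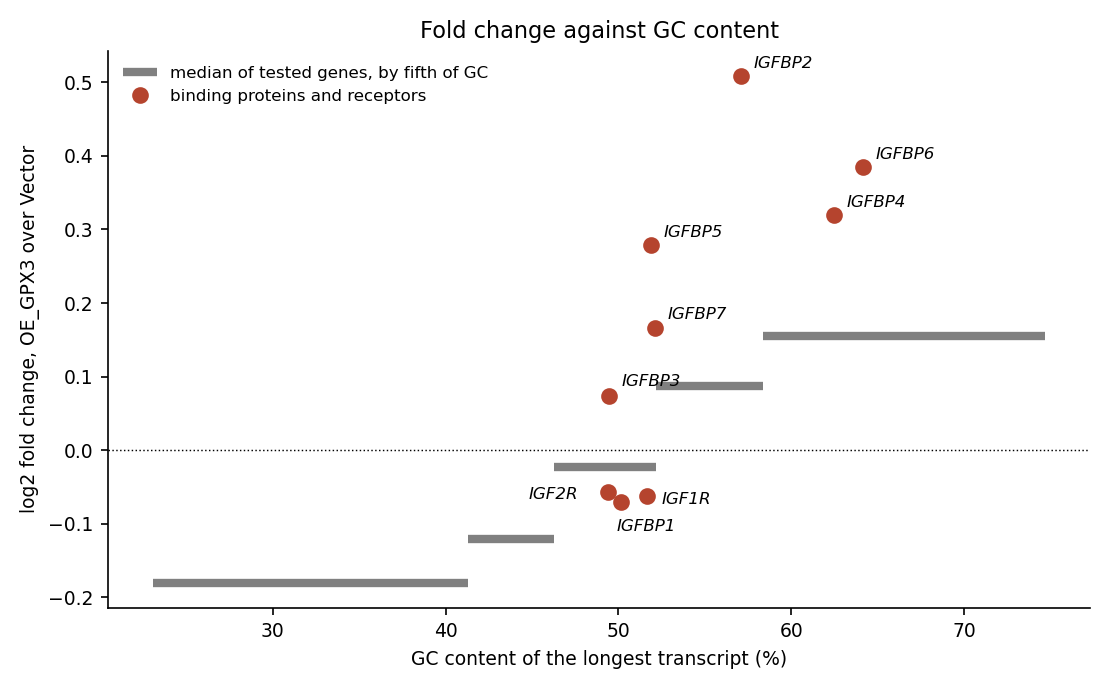
Log2 fold change of OE_GPX3 over Vector (edgeR, vertical axis) against the GC content of the gene's longest transcript in percent (horizontal axis). Red points are the 9 genes and grey bars the medians of all tested genes in 5 GC bins of equal size, which run from -0.18 to 0.16. IGFBP2, IGFBP6 and IGFBP4 lie at the upper right.

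IGFBP4 had 2283, 2158 and 2274 CPM in OE_GPX3, against 1695, 1637 and 2051 CPM in Vector. Here too every OE_GPX3 library was above every Vector library, with Vector replicate 3 the closest. Its log2 fold change was 0.32, with a 95% interval of 0.10 to 0.54 (edgeR adjusted p = 0.174), and 0.31 without OE_GPX3 replicate 1 (edgeR adjusted p = 0.0517).

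IGFBP6 (ENSG00000167779, chr12:53097436-53102345) had 61.9, 79.3 and 85.2 CPM in OE_GPX3, against 55.6, 51.4 and 66.5 CPM in Vector. OE_GPX3 replicate 1 lay below Vector replicate 3, so the groups overlapped. Its log2 fold change was 0.38, with a 95% interval of 0.14 to 0.63 (edgeR adjusted p = 0.152). Without OE_GPX3 replicate 1 the log2 fold change was 0.51 and the gene was called (edgeR adjusted p = 0.00163), in a fit that called 657 of 14707 genes.

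IGFBP2 and IGFBP5 are tail-to-tail neighbours on chromosome 2, 7668 bases apart with 0 genes between them. IGFBP5 (ENSG00000115461, chr2:216672105-216695525), whose product binds extracellular matrix, had 7.12, 5.96 and 4.48 CPM in OE_GPX3, against 6.21, 3.19 and 5.20 CPM in Vector. The groups overlapped. These values rest on 127, 101 and 69 counts in OE_GPX3 and 110, 62 and 85 counts in Vector. For the lowest library, Vector replicate 2, the exact 95% Poisson interval is 47.5 to 79.5 counts, which covers counting error only. IGFBP5 had a log2 fold change of 0.28 with a 95% interval of -0.17 to 0.73 (edgeR adjusted p = 0.562), and 0.11 without OE_GPX3 replicate 1. It was 0.041 without Vector replicate 2, 0.50 without Vector replicate 1 and 0.45 without OE_GPX3 replicate 3. The ratio of IGFBP2 to IGFBP5 in FPKM was 26.7, 36.8 and 45.6 in OE_GPX3 and 21.5, 41.0 and 32.2 in Vector, and these ranges overlapped.

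IGFBP1 and IGFBP3 are the other neighbours, tail to tail on chromosome 7 and 18576 bases apart. IGFBP1 (ENSG00000146678, chr7:45888357-45893668), which the liver secretes and insulin represses, had 53.1, 39.2 and 35.7 CPM in OE_GPX3, against 48.4, 44.8 and 41.3 CPM in Vector. OE_GPX3 held both the highest and the lowest library. For IGFBP1 the log2 fold change was -0.071 (95% interval -0.33 to 0.19, edgeR adjusted p = 0.820), and -0.26 without OE_GPX3 replicate 1. IGFBP3 (ENSG00000146674, chr7:45912245-45921874) had 424, 348 and 316 CPM in OE_GPX3, against 390, 301 and 344 CPM in Vector. The groups overlapped, with OE_GPX3 replicate 1 the highest library. For IGFBP3 the log2 fold change was 0.073 (95% interval -0.16 to 0.30, edgeR adjusted p = 0.790), and -0.054 without OE_GPX3 replicate 1. The ratio of IGFBP4 to IGFBP3 in FPKM was 11.2, 12.9 and 14.9 in OE_GPX3 and 9.04, 11.3 and 12.4 in Vector, and these ranges overlapped.

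IGFBP7 (ENSG00000163453, chr4:57030773-57110385), which binds IGFs with low affinity, had 24.5, 30.9 and 21.6 CPM in OE_GPX3, against 23.0, 21.4 and 24.1 CPM in Vector. The Vector libraries lay close together, and OE_GPX3 replicate 2 was the only library above 25 CPM. The log2 fold change was 0.17 (95% interval -0.11 to 0.44, edgeR adjusted p = 0.572), and 0.20 without OE_GPX3 replicate 1. It was 0.021 without OE_GPX3 replicate 2 and 0.29 without OE_GPX3 replicate 3. IGFBP7 shares its end with POLR2B, an RNA polymerase II subunit gene on the opposite strand with 879, 851 and 658 counts in OE_GPX3 and 1073, 1114 and 887 counts in Vector. No source used here says whether the authors counted by strand, so the values of IGFBP7 are uncertain. Genes overlapping IGF1R, IGF2R or IGFBP5 had at most 5 counts in any library.

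Neither receptor was called, and the groups overlapped for both. IGF1R (ENSG00000140443, chr15:98648539-98964530) had 249, 175 and 205 CPM in OE_GPX3, against 242, 207 and 207 CPM in Vector. IGF2R (ENSG00000197081, chr6:159969099-160113507) had 243, 184 and 214 CPM in OE_GPX3, against 229, 213 and 225 CPM in Vector. For both, OE_GPX3 replicate 1 was the highest and OE_GPX3 replicate 2 the lowest of all 6 libraries. The log2 fold change was -0.062 for IGF1R (95% interval -0.29 to 0.17, edgeR adjusted p = 0.825) and -0.057 for IGF2R (95% interval -0.27 to 0.16, edgeR adjusted p = 0.827). Without OE_GPX3 replicate 1 these values were -0.21 and -0.16. The ratio of IGF2R to IGF1R in FPKM, which does not depend on scaling between libraries, was 0.761, 0.823 and 0.814 in OE_GPX3 and 0.737, 0.803 and 0.849 in Vector.

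**Figure D4:**
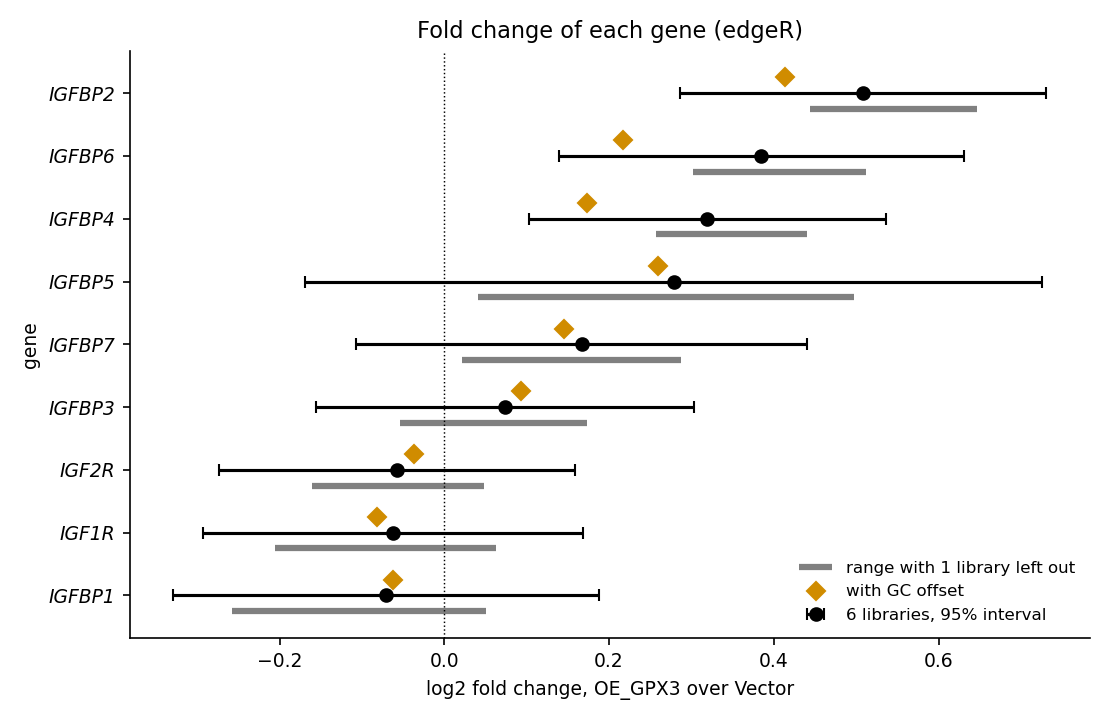
Log2 fold change of OE_GPX3 over Vector for each of the 9 genes (edgeR). Black points and lines are the estimate from 6 libraries with its 95% interval, grey bars the range when 1 library is left out and orange diamonds the estimate with a GC offset. The intervals of IGFBP2, IGFBP6 and IGFBP4 lie above 0, and the grey bars of IGFBP1, IGFBP3, IGF1R and IGF2R cross 0.

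The ligands were at or near 0. IGF1 and insulin (INS) had 0 counts in all 6 libraries. IGF2 had 2, 0 and 6 counts in OE_GPX3 and 1, 3 and 5 counts in Vector. A count of 0 allows up to 3 counts, which is 0.168 to 0.195 CPM in OE_GPX3 and 0.154 to 0.183 CPM in Vector. None of the 3 passed the filter on low counts.

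Of 54 other IGF system genes on 7 lists, 44 were tested and 0 were called by edgeR, while 7 (15.9%) had an unadjusted p under 0.05, against 0.263% and 14.6% of all genes tested. Their log2 fold change was above 0 for 17 and below 0 for 27, with a median of -0.094, against 6857 above, 7601 below and a median of -0.016 over all genes tested. Among genes for binding protein processing (8 of 11 tested, median 0.22), STC2, a stanniocalcin that inhibits PAPPA, had 55.4 ± 21.6 CPM in OE_GPX3 and 101 ± 42.4 CPM in Vector (SD, n = 3 each). Its interval was wide, a log2 fold change of -0.88 with -2.14 to 0.39 (edgeR adjusted p = 0.472). Its relative STC1 had 0.45 (edgeR adjusted p = 0.308), and HTRA1, a secreted serine protease that cleaves IGFBP5, had 0.26 (0.283). PAPPA, named here after its values were seen, had 180 ± 42.4 CPM in OE_GPX3 and 202 ± 31.3 CPM in Vector (log2 fold change -0.16, edgeR adjusted p = 0.607). Without OE_GPX3 replicate 1, PAPPA was called lower (-0.37, edgeR adjusted p = 0.0242), in a fit that called 657 of 14707 genes.

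Downstream of the receptor, the adaptors (9 of 10 tested) had a median log2 fold change of -0.061. GRB10, which binds IGF1R and the insulin receptor and limits their signalling, had 36.4 ± 4.83 CPM in OE_GPX3 and 49.4 ± 7.69 CPM in Vector (SD, n = 3 each). Its log2 fold change was -0.44 (edgeR adjusted p = 0.118). It was called lower without Vector replicate 1 (-0.54, edgeR adjusted p = 0.0161) and without OE_GPX3 replicate 1 (-0.44, 0.0231). Those fits called 116 of 14727 and 657 of 14707 genes. The main docking proteins of the receptor, IRS1 and IRS2, had -0.21 (edgeR adjusted p = 0.386) and 0.060 (0.902), and GRB14 had -0.25 (0.430). The PI3K and AKT arm (16 of 17 tested) had a median of -0.11, with the mTORC1 inhibitor TSC1 at -0.31 (edgeR adjusted p = 0.333) and the transcription factor FOXO1 at -0.30 (0.464). The insulin receptor gene INSR had a log2 fold change of -0.089 (edgeR adjusted p = 0.808).

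The IGF2 mRNA-binding proteins IGF2BP1, IGF2BP2 and IGF2BP3 had log2 fold changes of 0.061 (edgeR adjusted p = 0.808), 0.038 (0.924) and -0.20 (0.547). Of known regulators of IGF genes (7 of 8 tested, median -0.15), the chromatin protein HMGA2 had 0.24 (edgeR adjusted p = 0.550), the GC box factor SP1 -0.21 (0.384) and the insulator protein CTCF -0.15 (0.567).

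**Figure D5:**
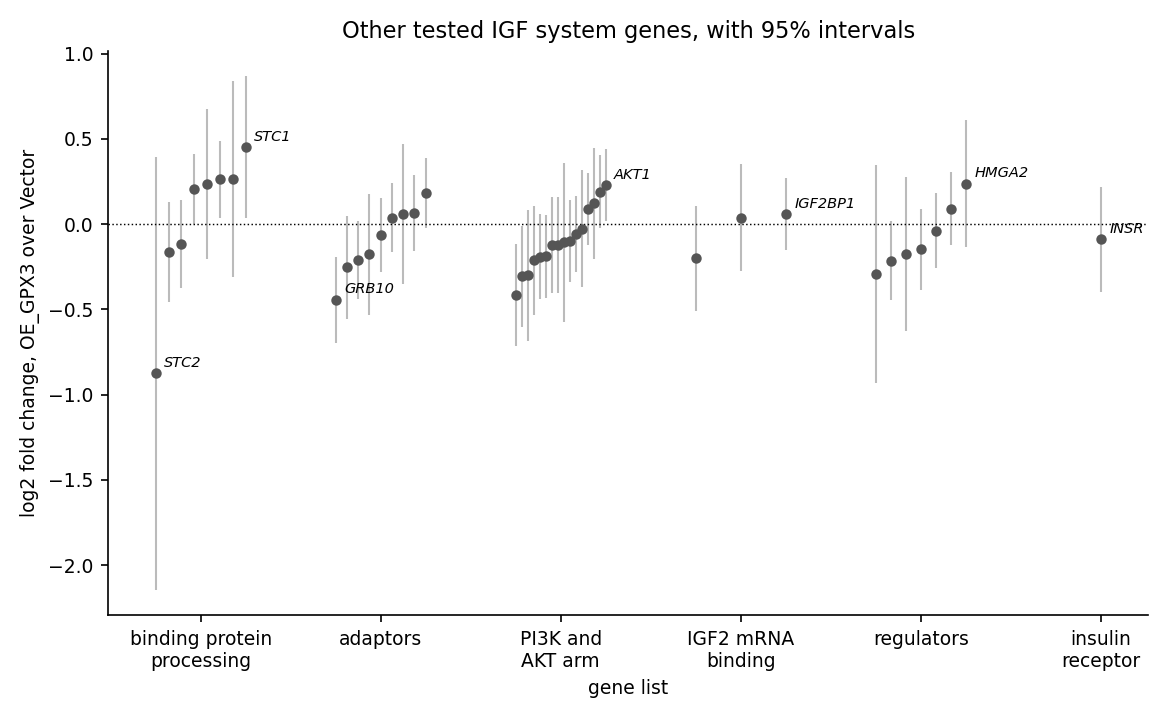
Log2 fold change of OE_GPX3 over Vector with its 95% interval (edgeR) for the 44 tested genes of the other IGF system lists, 1 point per gene, sorted within each list. STC2 at -0.88 has the widest interval, and 0 of the 44 genes were called.

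Over the 6 libraries, protein-coding genes among the most like IGFBP2 in log2 CPM, of 9980 with a mean of at least 5 CPM, were POLD4 (a DNA polymerase delta subunit, Pearson r = 0.999), SPINT2 (a serine protease inhibitor, 0.995), PGD (an enzyme of the pentose phosphate pathway, 0.995) and LRFN4 (0.994). POLD4 had 51.1, 57.4 and 55.3 CPM in OE_GPX3 and 38.5, 37.3 and 45.9 CPM in Vector. Those most opposed were PTPN2 (r = -0.994), LUC7L2 (-0.994) and CSNK1G1 (-0.993). These are descriptions, since the 6 points share 2 groups and the same GC differences between libraries: GC content was 58.8% for POLD4 and 39.8% for PTPN2.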

How the data were processed

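The authors deposited whole-number counts per gene and library, and FPKM values, and the build was hg38 per the submitters' processing notes. Aligner, counter and strand setting were not given in the sources used here. Per the labels' protocols the library type was small RNA, whereas 97.2% to 97.6% of counts fell on genes the deposited table classes as protein-coding. Within each library the deposited FPKM are the counts divided by gene length and by a constant, which differs from the total count by -4.52% to 4.90%. All 58735 genes have the positions of GENCODE 29, and 0 columns of other samples were present.

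Counts were filtered with edgeR 4.0.16 (filterByExpr, minimum count 10, minimum total 15), leaving 14458 genes, scaled with TMM and compared by its robust two-sided quasi-likelihood test, with p-values adjusted by Benjamini-Hochberg over those genes and a threshold of 0.05. The biological coefficient of variation was 0.110. CPM are scaled with TMM. The script was tested on simulated data. GC content came from the longest GENCODE transcript, and its offset from a lowess curve (span 0.3) per library. Alternatives used DESeq2 1.42.0 and limma 3.58.1 (mean FPKM of at least 1). The 9 genes and all gene lists were chosen with earlier results of these data known. Named from the lists are genes called, the ligands, INSR, IRS1 and IRS2, and per list the 3 with the largest absolute fold change at a mean of 5 CPM or more. Likeness to IGFBP2 names the 5 highest and 3 lowest correlations. Some genes these rules name are not reported here.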

Additional observations from a re-analysis of the deposited data

How the results depend on the processing

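The count of genes changed, 38 (14 higher and 24 lower), became 68 with total counts alone (13 and 55), 129 with no filter on low counts, 115 with DESeq2 (74 and 41), 231 with a replicate block, 4 with a GC offset (2 and 2), and 10 and 11 with limma on log2(FPKM + 1) and log2(FPKM + 0.1). With 1 library left out it ran from 1 (without OE_GPX3 replicate 2) to 657 (without OE_GPX3 replicate 1). It was 12 without OE_GPX3 replicate 3, 116 without Vector replicate 1, 4 without Vector replicate 2 and 35 without Vector replicate 3. Of the IGF system lists, 2 of 44 tested genes were called without OE_GPX3 replicate 1, against 657 of all 14707 tested there. Without Vector replicate 1 it was 1 of 45, against 116 of all 14727. With any other library left out it stayed at 0. IGFBP2 had 0.41 with the GC offset and 0.51 and 0.53 with limma on the same FPKM scales, where its call was lost (adjusted p = 0.129, 0.149 and 0.155), and 0.44 to 0.65 with 1 library left out. The range with 1 library left out was 0.30 to 0.51 for IGFBP6, 0.041 to 0.50 for IGFBP5, 0.021 to 0.29 for IGFBP7, -0.26 to 0.051 for IGFBP1, -0.054 to 0.17 for IGFBP3, -0.21 to 0.063 for IGF1R and -0.16 to 0.049 for IGF2R, the last 4 being the genes whose sign changed there. Of 160 values of the 9 genes under alternatives, 145 kept their direction and side of the threshold, 7 lost the call (all IGFBP2), 2 gained one (both IGFBP6) and 6 changed sign, all with a library left out. The causes were not tested. Whether library numbers pair the samples was not settled. In their deviations from the group means, same-numbered libraries correlated at 0.19, 0.010 and 0.11, and differently numbered ones at -0.15 to 0.049. Replicates 1 and 3 each correlated best with the library of the same number, while Vector replicate 2 correlated best with OE_GPX3 replicate 3 (0.033). With the replicate block IGFBP6 had 0.38 (edgeR adjusted p = 0.0492) and was called, but not with the block and GC offset together (0.21, edgeR adjusted p = 0.344), where IGFBP2 was called (0.42, edgeR adjusted p = 0.0437) and 49 genes were changed. All 9 genes kept their place in the Vector order of levels with TMM-scaled counts per kilobase. This is no separate check, since within a library both measures are counts per length over a constant. The OE_GPX3 order was not compared. IGFBP5 was not in the FPKM fits because of its low mean. Depth limits IGFBP5 and the ligands, whose counts were 0 or low.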
